A study of Bos taurus with 2 samples.

Results

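GSTA1_BOVIN and SDHL_BOVIN are 2 of the 17252 annotated protein coding genes with a fragment in at least 1 library of bovine embryos produced by in vitro fertilization (IVF). A further 1791 genes in the tables had none. They were picked by their identifiers, ENSBTAG00000021516 and ENSBTAG00000031814, because both had far more fragments in degenerative embryos than in blastocysts. This difference therefore chose the genes and is described here without a test. All samples were IVF embryos that had compacted to the morula stage in culture and were collected on Day 8. Embryos with a fluid-filled cavity and a visible inner cell mass on that day make up the blastocyst group, and embryos still arrested at the morula stage make up the degeneratives. Each group was 1 pool of 20 embryos, from which RNA was linearly amplified and 50 ng of amplified RNA was made into 1 library. There is thus no replicate, every interval below is a 95% interval of the counting error alone. Fragments copied from amplified RNA cannot be taken as separate molecules.

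GSTA1_BOVIN is glutathione S-transferase A1, a cytosolic enzyme of the alpha class. Transferases of this class join glutathione to reactive, electrophilic compounds, which makes these more soluble and easier for the cell to export, and some of them also act on steroids or on lipid peroxides. They are best known from the liver and from steroid-producing cells. SDHL_BOVIN is L-serine dehydratase, which uses pyridoxal phosphate to split serine into pyruvate and ammonia and can also act on threonine. It is known as a liver enzyme that feeds amino acid carbon into the synthesis of glucose. Serine is also a source of the glycine and, through transsulfuration, of the cysteine in glutathione.

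The tables list 2 values for each gene and library. The first is the raw count of fragments lying within constitutive exons, and the second is the value that the authors obtained by quantile normalization, here called the normalized count. Raw counts added up to 10687008 in the blastocyst library and to 6514505 in the degenerative library, so that the blastocyst library was 1.64 times deeper in counted fragments. A count of 3 fragments was set as the floor. It corresponded to 0.281 CPM (fragments per 1000000 counted ones) in the blastocyst library and to 0.461 CPM in the degenerative library.

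GSTA1_BOVIN was close to undetected in blastocysts and of moderate abundance in degeneratives. Its raw count was 3 in blastocysts, with an exact Poisson interval from 0.619 to 8.77 fragments. In degeneratives the raw count was 182, with an interval from 157 to 210. The blastocyst count equalled the floor, which is a set value of 3 and was not estimated from the data. The degenerative count was well above it. That the intervals did not overlap follows from how the gene was chosen. In CPM these counts were 0.281 (0.0579 to 0.820) and 27.9 (24.0 to 32.3). The normalized count of GSTA1_BOVIN was 4 in blastocysts and 212 in degeneratives, which gave a ratio of 53.0. Carrying over the exact interval of the raw ratio gave a range from 17.9 to 259, which is wide because the lower count rested on so few fragments.

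SDHL_BOVIN was measurable in both libraries. It had 29 raw counts in blastocysts, with an exact Poisson interval from 19.4 to 41.6, and 468 in degeneratives, with an interval from 427 to 512. The blastocyst value of serine dehydratase was therefore some way above the floor. Relative to the count, its error was much smaller than that of GSTA1_BOVIN. In CPM the counts were 2.71 (1.82 to 3.90) and 71.8 (65.5 to 78.7). The normalized counts were 30 and 564, a ratio of 18.8 with a counting interval from 12.9 to 28.4.

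**Figure D1:**
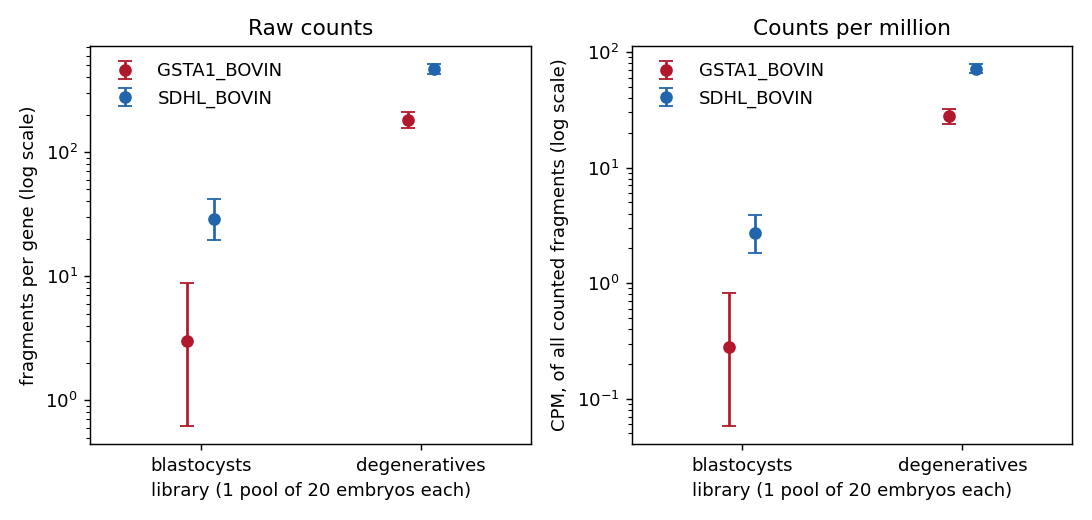
Raw counts (left, fragments per gene) and CPM (right, scaled to all counted fragments) of GSTA1_BOVIN (red) and SDHL_BOVIN (blue) in the blastocyst and the degenerative library, on log axes. Points are the values of 1 library each and bars are exact 95% Poisson intervals. For each gene the intervals of the libraries do not overlap, which follows from the choice of the genes by this difference. The interval of GSTA1_BOVIN in blastocysts, from 0.619 to 8.77 fragments, is the widest on this scale.

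The direction did not rest on the number of counted fragments, since both genes had more raw counts in the library with fewer of them. The raw count ratio of degeneratives to blastocysts was 60.7 for GSTA1_BOVIN, with an exact interval from 20.4 to 297, and 16.1 for SDHL_BOVIN, with an interval from 11.1 to 24.4. Had GSTA1_BOVIN been at the same CPM in both libraries, the degenerative count would correspond to 299 fragments in blastocysts, where 3 were counted. For SDHL_BOVIN the corresponding number was 768, where 29 were counted. On the quantile scale the gap was similar. The 68 genes within 2 normalized counts of 212 in blastocysts had 240 to 245 raw counts there, and the 16 genes within 2 of 564 had 658 to 663.

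The change moved both enzymes through the ranks of expression. In blastocysts, 26.1% of the annotated genes had fewer raw counts than GSTA1_BOVIN, and 721 genes, itself included, had exactly 3. In degeneratives, 73.9% of genes had fewer counts than GSTA1_BOVIN, and 4954 had more. SDHL_BOVIN stood near the middle of the blastocyst library, where 52.1% of genes had fewer counts and the median gene had 23. In degeneratives it stood above 85.5% of genes, with 2755 genes higher. Ranks within a library do not depend on its scaling, but they do depend on exon length, which the tables do not give.

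Log2 ratios of degeneratives to blastocysts were computed for all genes from the normalized counts with a pseudocount of 1, a scale that understates the ratio of genes with few counts. On it the value was 5.41 for GSTA1_BOVIN and 4.19 for SDHL_BOVIN. Among 13171 genes with at least 10 raw counts over both libraries, 100 were at least 8-fold higher in degeneratives on this scale, or 0.759%, and 28 were at least 8-fold lower, or 0.213%. Both enzymes were among the 100, which follows from how they were chosen. GSTA1_BOVIN ranked 10 and SDHL_BOVIN ranked 22 by log2 ratio. The split of these genes moved with the scaling. With summed counts as library sizes it was 210 higher and 10 lower. It was 135 and 16 with the trimmed mean of M-values (TMM), and 131 and 16 with median-of-ratios factors. With the study's uniquely mapped fragments as library sizes it was 93 and 23, and with recomputed quantile values 101 and 27.

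**Figure D2:**
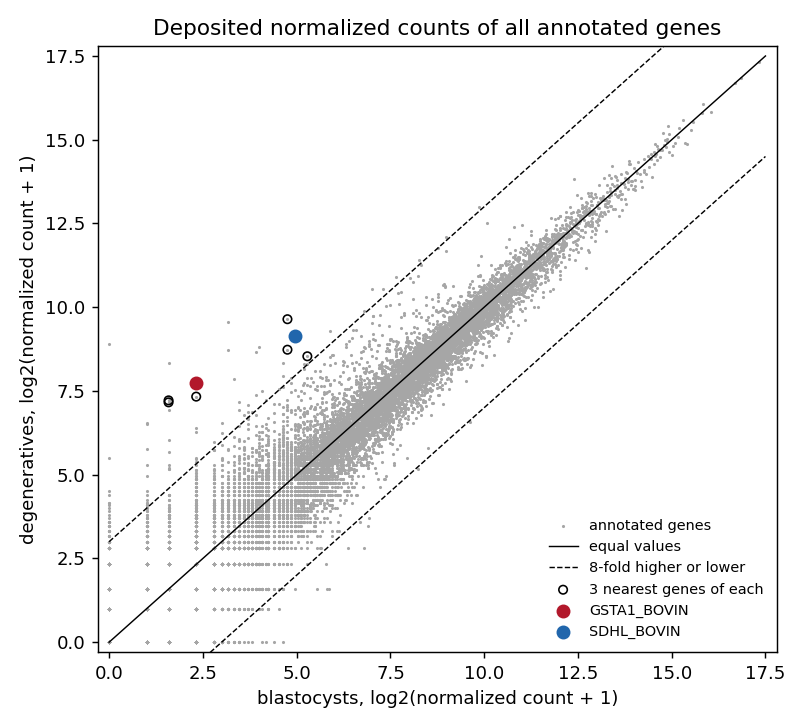
Deposited normalized counts of the annotated genes in blastocysts (horizontal) and degeneratives (vertical), each as log2 of the value plus 1. GSTA1_BOVIN (red) and SDHL_BOVIN (blue) lie above the upper dashed line, which marks an 8-fold difference. Open circles are the 3 genes nearest to each of them.

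The degenerative counts of both enzymes were next set beside those of genes with the same blastocyst count. Since the enzymes were chosen by these very counts, their place at the high end follows from the choice, and the values serve as a scale. Besides GSTA1_BOVIN, 720 genes had 3 raw counts in blastocysts. Their degenerative counts had a median of 4 and a 95th percentile of 14, and 87 of them were at 0. The highest was 76, against 182 for GSTA1_BOVIN. For SDHL_BOVIN, 53 other genes had 29 raw counts in blastocysts. Their degenerative counts ran from 6 to 107 with a median of 29, against 468 for serine dehydratase.

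**Figure D3:**
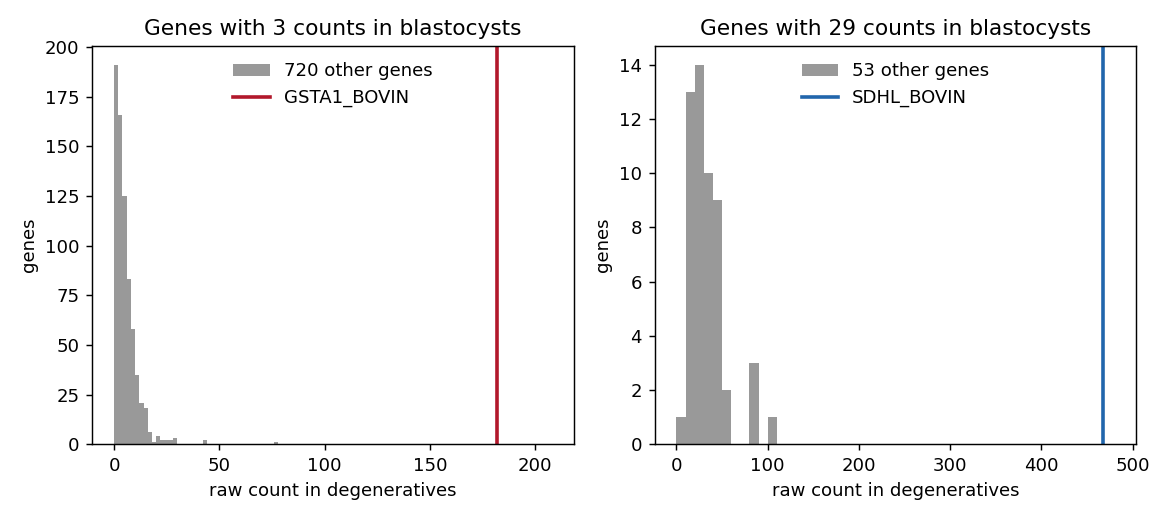
Raw counts in degeneratives of genes that had the same raw count in blastocysts as GSTA1_BOVIN (left, 3 counts, 720 other genes) or SDHL_BOVIN (right, 29 counts, 53 other genes). Grey bars give the number of other genes and the coloured line gives the enzyme, at 182 and 468 counts, beyond the highest other gene at 76 and 107.

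The same counts can be read from the other side, which adds no independent evidence. In degeneratives, 451 other genes had a raw count within 10% of that of GSTA1_BOVIN, and their blastocyst counts ran from 8 to 869 with a median of 247. GSTA1_BOVIN had 3. The 400 genes within 10% of SDHL_BOVIN in degeneratives had 91 to 2048 counts in blastocysts, with a median of 663, against 29 for SDHL_BOVIN.

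Genes of like mean abundance show the spread of log2 ratios between the libraries at the mean of each enzyme. Since the difference between the libraries chose the enzymes, the comparison is a description. The mean normalized count over both libraries was 108 for GSTA1_BOVIN, and 388 other genes had a mean within 10% of it. Their log2 ratios had quartiles of -0.49 and 0.34 and a maximum of 3.41, and 2 of them were at least 8-fold higher in degeneratives. The ratio of GSTA1_BOVIN rested on 3 raw counts in blastocysts, so its counting error was larger than that of a typical gene of this mean. SDHL_BOVIN had a mean of 297. The 460 genes near it had quartiles of -0.33 and 0.27 and a maximum of 2.61, and none reached 8-fold. This spread contains whatever differs between the embryo types as well as between pools, and the share of each cannot be told apart with 1 library per group.

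The raw count ratio of GSTA1_BOVIN was 3.76 times that of SDHL_BOVIN, a quantity that no library-wide factor can alter, with a conditional interval of the odds ratio from 1.14 to 19.5. This interval describes the counting error of 4 counts that were themselves the basis of the choice, and it is no test of a difference between the enzymes. Of the fragments of both genes, GSTA1_BOVIN took 9.38% of 32 in blastocysts (exact binomial interval 1.98 to 25.0) and 28.0% of 650 in degeneratives (24.6 to 31.6). Which enzyme had the more transcripts within a library cannot be read from these shares, because the exon lengths are not given. With a pseudocount of 1 the log2 ratios differed by 1.22, and with a pseudocount of 5 by 0.57.

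How far apart the libraries were depended on how they were scaled. Without a pseudocount, 6 scalings gave ratios between 53.0 and 99.5 for GSTA1_BOVIN and between 16.6 and 26.5 for SDHL_BOVIN. Library-wide factors moved both genes alike, from 62.5 to 99.5 and from 16.6 to 26.5. The lower ratios of GSTA1_BOVIN, 53.0 and 60.6, came from the quantile values. The lowest lower bound of any of these counting intervals was 17.9 for GSTA1_BOVIN and 11.4 for SDHL_BOVIN. The highest ratios came from summed counts as library sizes, a scaling that put the median log2 ratio of the 13171 genes at 0.32. The uniquely mapped fragments given by the study as library sizes put it at -0.34. The study reports a larger share of intronic fragments in degeneratives. It cautions that scaling to total mapped reads may bias expression estimates in such a case. With a pseudocount of 1, and relative to the median gene under each scaling, the log2 ratio was 5.44 to 5.90 for GSTA1_BOVIN and 4.21 to 4.35 for SDHL_BOVIN.

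**Figure D4:**
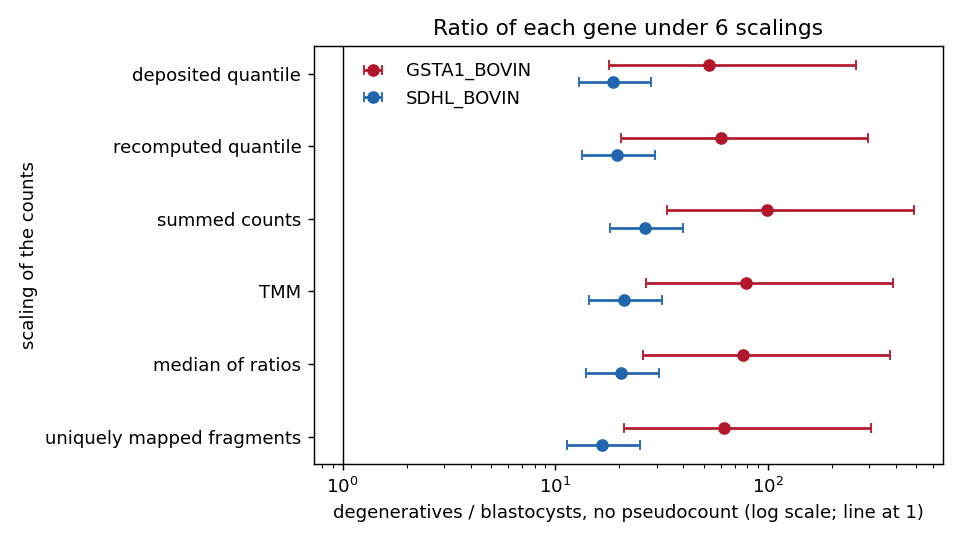
Ratio of degeneratives to blastocysts for GSTA1_BOVIN (red) and SDHL_BOVIN (blue) under 6 scalings of the counts, with no pseudocount and a log axis. Points are ratios and bars are exact 95% intervals of the raw count ratio, rescaled. No bar reaches 1, which follows from the choice of the genes by this difference. The lowest bounds are 17.9 and 11.4.

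Small steps of the normalization also showed at the low end. The normalized count of 4 in blastocysts stood for genes with 3 as well as 4 raw counts, so that GSTA1_BOVIN shared it with genes that had a further fragment. When the quantile normalization was recomputed from the annotated genes alone and left unrounded, which changes more than the rounding, the blastocyst value of GSTA1_BOVIN was 3.50, the ratio was 60.6 and its rank by log2 ratio went from 10 to 4. The rank of SDHL_BOVIN was 22 in both. Under the other 4 scalings GSTA1_BOVIN ranked 4, and SDHL_BOVIN ranked 23 with summed counts, 27 with TMM, 27 with median-of-ratios factors and 29 with the uniquely mapped fragments.

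The genes with the most similar values were found by the distance between pairs of log2 normalized counts (plus 1) over the 2 libraries. ENSBTAG00000038169, which has no name in the sources used here, was nearest to GSTA1_BOVIN at a distance of 0.40, with normalized counts of 4 and 160. LOC525101 was next at 0.90, with 2 and 148. A further unnamed gene lay at 0.93, with 2 and 142. Nearest to SDHL_BOVIN was IL2RG_BOVIN, the common gamma chain of several interleukin receptors, at 0.46 with 26 and 424. ENSBTAG00000034940, also unnamed, followed at 0.54 with 26 and 798, and another unnamed gene at 0.69 with 38 and 370. The enzymes themselves were 2.98 apart, so neither was among the nearest genes of the other. With 2 libraries this likeness describes 2 values per gene and nothing more.

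The identified markers of other cell types also differed between the libraries, which follows from their selection by the study. Of 7 genes listed as markers of mesenchymal or stromal cells, 4 could be identified, and these had themselves been selected by the study for this difference. VIME_BOVIN (vimentin, an intermediate filament protein) had normalized counts of 926 and 8208, LUM_BOVIN (lumican, a collagen-binding proteoglycan) 506 and 3306, PGS2_BOVIN (decorin) 95 and 640, and MMP2_BOVIN (a matrix metalloproteinase) 128 and 744. Their summed normalized count was 1655 in blastocysts and 12898 in degeneratives, and none of them was at 0. Of 5 symbols listed for red blood cells, 1 could be identified, again through the study's selection by this difference. It was HBBF_BOVIN, a fetal globin, with 36 and 316. The ratios of these 5 genes lay between 5.81 and 8.86, below those of both enzymes. Their part in the result was not tested, and in pooled embryos more cells of a type and more RNA per cell cannot be told apart. Markers of the inner cell mass, trophectoderm, hypoblast, cumulus cells, liver and oocyte could not be matched to identifiers, so that the embryo labels were not checked against them.

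Neither the other enzymes of glutathione and serine metabolism nor the close relatives of the 2 genes could be followed here. In the RefSeq table of the newer ARS-UCD2.0 assembly, GSTA1 lies between GSTA2 and GSTA5, followed by GSTA3 and GSTA4, which makes 5 alpha class genes in a row. SDS, the gene of serine dehydratase, lies beside SDSL, a related gene. The study places its fragments in annotated genes among the uniquely mapped ones, but does not say whether the counts per gene kept to these. Fragments shared by near-identical copies would be lost in the first case and could be counted for a copy in the second, and the value of GSTA1_BOVIN is uncertain to that extent.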

How the data were processed

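The 2 count tables, 1 for each embryo pool, were joined by Ensembl identifier. According to the study's methods, the authors aligned reads with TopHat 1.0.13 to Btau4 after masking of repeats, discarded reads matching too many positions, and counted fragments within constitutive exons not shared between genes. The deposited raw counts are these whole numbers, without normalization. The deposited normalized column is a score, namely the counts quantile normalized by the authors with limma and rounded. Raw totals were 10687008 in blastocysts and 6514505 in degeneratives, and 3 counts were taken as the floor.

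Intervals were computed with Python 3.11.15 and scipy 1.17.1 at the 95% level: exact Poisson for counts, exact binomial for shares, and the exact conditional interval for ratios of counts. Ratios across all genes used the normalized counts with a pseudocount of 1. No test was run, since each group had 1 library and the difference had chosen the genes. The code for the intervals and scalings was checked on simulated counts, of which no value is used here. Alternatives were quantile values recomputed with limma 3.58.1, summed counts, edgeR 4.0.16 TMM factors, DESeq2 1.42.0 median-of-ratios factors, the study's uniquely mapped fragments, other pseudocounts and other minimum counts.

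The genes, lists and comparisons were chosen with earlier results of these data known. The genes named were both enzymes, the 3 nearest to each by distance, with at most 2 unnamed identifiers printed, and the identified markers. Names came from the study's text and supplement. Of 132 symbols in 12 lists, 0 were paired with an Ensembl identifier in the RefSeq table, so that the lists for glutathione S-transferases, glutathione synthesis and redox, serine, glycine and threonine metabolism, gluconeogenesis and most cell types gave no result.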

Additional observations from a re-analysis of the deposited data

How the results depend on the processing

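The log2 ratios of both enzymes kept their direction under all scalings and pseudocounts tried. They also stayed within the counting intervals of the deposited normalized ratios without a pseudocount. In log2 these ran from 4.16 to 8.02 for GSTA1_BOVIN and from 3.69 to 4.83 for SDHL_BOVIN. The interval of GSTA1_BOVIN is wide because it rests on 3 fragments in blastocysts, so that staying within it says little. With the main value included, 9 settings gave 4.59 to 6.13 for GSTA1_BOVIN, 4.01 to 4.67 for SDHL_BOVIN, and 0.57 to 1.54 for the difference between them. The lowest value of GSTA1_BOVIN and of the difference came with a pseudocount of 5, which by construction shrinks ratios against a count of 3. The number of genes at least 8-fold higher in degeneratives, 100 on the main scale, was 210 with summed counts, 155 with a pseudocount of 0.1, 39 with a pseudocount of 5 and 51 at a minimum of 50 raw counts. The number at least 8-fold lower, 28 on the main scale, was 10 with summed counts, 16 with TMM, 16 with median-of-ratios factors, 61 with a pseudocount of 0.1, 4 with a pseudocount of 5, 60 with all genes that had a count and 11 at a minimum of 50 raw counts. The cause was not tested beyond these settings. No paired analysis was possible because each group had 1 library, and for the same reason no library could be left out. Counting error relative to the count was largest for GSTA1_BOVIN in blastocysts, where 3 fragments allow a range from 0.619 to 8.77.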
